A study of Homo sapiens with 6 samples.

Results

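The receptors and ligands of the EGFR family, with the inhibitor of the receptors that they induce, were followed in MDA-MB-231 cells whose guide RNA was directed at MLL3. The set was defined by gene symbol, and all 10 genes were found among the 15706 genes of the deposited table. It holds 3 receptors (EGFR, ERBB2 and ERBB3), 6 ligands (HBEGF, AREG, EREG, TGFA, BTC and NRG1) and ERRFI1. The cells are an established human triple-negative breast cancer line. The sgMLL3 libraries carried a guide labelled sgMLL3 and the genotype MLL3 knockout (replicates 1, 2 and 3), and the sgNT libraries carried a guide labelled sgNT and the wild-type genotype (replicates 1, 2 and 3). MLL3, whose approved symbol is KMT2C, encodes a histone H3 lysine 4 methyltransferase that acts at enhancers. All 6 libraries came from untreated cells in DMEM with 10% serum, so every group was also exposed to the growth factors of serum. The labels call the libraries biological replicates and give neither the exon that was cut nor whether cells were cloned or pooled, and do not say whether the number after each guide name marks a separate guide. The series title concerns MLL3 loss, metastasis and partial epithelial-mesenchymal transition.

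EGFR, ERBB2 and ERBB3 are receptor tyrosine kinases that pair on binding a ligand and phosphorylate one another, which recruits adaptors that activate the RAS-ERK and PI3K-AKT cascades. The ligands are made as transmembrane precursors and are released by membrane proteases such as ADAM10 and ADAM17. HBEGF, AREG, EREG, TGFA and BTC bind EGFR, whereas NRG1 binds ERBB3. ERBB2 has no known soluble ligand and serves as a partner, and the kinase of ERBB3 is nearly inactive. ERRFI1, also called MIG6, binds the kinase domain of the receptors and blocks it, and its own transcription is induced by ERK signalling. In basal and triple-negative breast cancers EGFR is often abundant.

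Each library held between 41240265 and 49514464 reads in the listed genes. Levels are normalized read counts, that is, reads divided by 1 size factor per library. KMT2C itself was read at 1519, 1660 and 1339 normalized counts in the sgMLL3 libraries and at 1367, 1379 and 1255 in the sgNT libraries, so its transcript level gave no check of the label. Differences ran along the base composition of transcripts. The median log2 fold change was 0.42 over the 2185 tested genes below 40% GC and -0.26 over the 2119 above 60% GC. Fold changes of the 10 genes are given as deposited and again after a per-library trend along GC content and transcript length had been subtracted (trend removal). Of 15 marker genes of the line, 10 were listed. VIM, AXL and CAV1, which mark mesenchymal cells, and the luminal keratins KRT8 and KRT18 alike stood between 4207 and 11087 counts per kb of exon on average in either group, whereas CDH1 (E-cadherin) stood at 0.650 in the sgMLL3 libraries and 0.905 in the sgNT libraries. EPCAM and GATA3, listed like CDH1 as low in the line, were not near 0. EPCAM stood at 375 in the sgMLL3 libraries and 311 in the sgNT libraries, and GATA3 at 135 and 182. The summed level of the list was 39949 to 41228 counts per kb in the sgMLL3 libraries and 42318 to 43973 in the sgNT libraries. Of 9 tested, CAV1 was called higher and AXL and GATA3 lower, beside 18.9% and 14.4% of all genes tested. After trend removal CAV1, AXL and GATA3 did not pass and VIM did (limma adjusted p = 0.0238), beside 10.0% of all genes. ESR1 and PGR, the hormone receptors that such tumours lack, were not among the genes used here. Of 22 fibroblast, endothelial and leukocyte markers, 11 were listed. Their summed level was 569, 548 and 679 counts per kb in the sgMLL3 libraries and 766, 785 and 986 in the sgNT libraries. Of 9 tested, 4 fell (COL1A1, PDGFRB, KDR and CD14), beside 14.4% of all genes tested. After trend removal KDR and PTPRC were called, both lower, beside 5.95% of all genes. Among the defining markers DCN, LUM, CDH5 and CD3D were not listed. The listed ones ranged from VWF, near 0, to NKG7, at 324 counts per kb in the sgMLL3 libraries and 419.8 in the sgNT libraries. The part of such cells in the results below was not tested. In such bulk RNA, fewer cells of a type and less RNA per cell cannot be told apart.

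Between the groups, 2 of the 10 genes were higher in the sgMLL3 libraries, 1 was lower and 7 did not pass the test. The ligand EREG (epiregulin) rose by 0.72 on the log2 scale and ERRFI1 by 0.40, while the ligand NRG1 (neuregulin 1) fell by 0.37. EGFR, the most abundant receptor, had a log2 fold change of 0.032. Called here means an adjusted p below 0.05 in limma with Benjamini-Hochberg adjustment over 14618 genes, and the fold changes are on the log2(normalized count + 1) scale as sgMLL3 over sgNT, with their standard errors (SE). Across all genes tested, 33.2% were called, 18.9% higher and 14.4% lower, and the counts of 2 and 1 among 10 genes lie near those shares. ERBB2, EREG, NRG1 and ERRFI1 (4 of the 10 genes) showed no overlap between groups, beside 46.3% of all genes tested. With the trend removed, 0 of the 10 genes were higher and 2 lower (TGFA and NRG1) in limma, beside 4.08% and 5.95% of all genes (10.0% in all). At an unadjusted p below 0.05, 1 gene (EREG) was higher and 2 were lower in that analysis. On the recovered reads, edgeR called 2 genes higher and 1 lower, beside 18.3% and 15.3% of all genes (33.6% in all), and DESeq2 called 2 higher and 2 lower, beside 20.3% and 16.3% (36.6% in all). Of the genes given an adjusted p in the authors' deposited table, it lay below 0.05 for 38.5%. NRG1 was the only gene of the 10 called in the same direction both as deposited and with the trend removed.

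**Figure D1:**
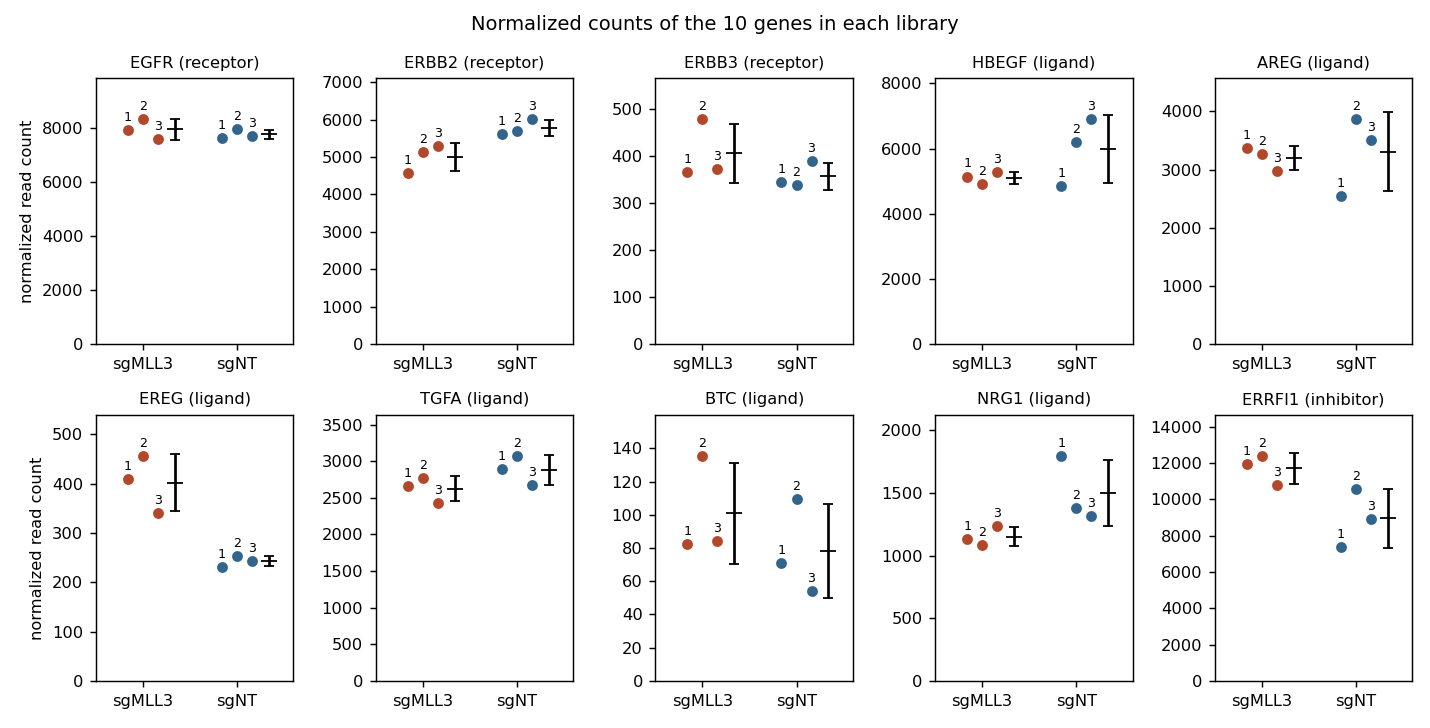
Normalized read counts (y axis, from 0) of each of the 10 genes in the 3 sgMLL3 and 3 sgNT libraries, numbered by replicate, with mean and SD as black bars. EREG and ERRFI1 lie wholly higher and ERBB2 and NRG1 wholly lower in the sgMLL3 libraries, and sgNT replicate 1 is the lowest control for HBEGF, AREG and ERRFI1 and the highest for NRG1.

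Among the receptors, EGFR (ENSG00000146648.18, chromosome 7, 55019021 to 55211628, plus strand; all gene coordinates are from GENCODE 29 on GRCh38) held 7895, 8319 and 7577 normalized counts in the sgMLL3 libraries and 7633, 7939 and 7683 in the sgNT libraries. The values of the groups were interleaved. The log2 fold change was 0.032 (SE 0.077, limma adjusted p = 0.778), with a 95% interval of -0.13 to 0.19, and once the trend was removed its sign turned to -0.042 (SE 0.049, adjusted p = 0.641). The antisense gene EGFR-AS1 shares 186 bases of exon with it, 1.49% of its exon length, and is not among the genes used here.

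ERBB2 (ENSG00000141736.13, chromosome 17, 39687914 to 39730426, plus strand) encodes HER2, the receptor that is amplified in another class of breast cancer. It held 4581, 5136 and 5282 normalized counts in the sgMLL3 libraries and 5612, 5701 and 6016 in the sgNT libraries, so all sgMLL3 libraries lay below all sgNT libraries. The difference of -0.21 (SE 0.083) narrowly missed the threshold (limma adjusted p = 0.0569), and the authors' deposited table lists an adjusted p of 0.0501 for it. DESeq2 on the recovered reads placed it just past the threshold (adjusted p = 0.0495), as did limma without sgMLL3 replicate 3 (-0.25, adjusted p = 0.0427) or without sgNT replicate 1 (-0.23, 0.0265). ERBB2 has the most GC-rich transcript of the 10 genes (57.5%), and with the trend removed the difference was -0.029 (SE 0.050, limma adjusted p = 0.763). Exons of MIEN1 on the opposite strand cover 5.53% of those of ERBB2, and exons of PGAP3 cover 1.88%. Whether the counting used strand is not given in the sources used here, and reads in those stretches cannot be told apart without it.

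ERBB3 (ENSG00000065361.15, chromosome 12, 56076799 to 56103505, plus strand), a neuregulin receptor, held 367, 479 and 372 normalized counts in the sgMLL3 libraries and 344, 337 and 388 in the sgNT libraries. The groups overlapped, with sgMLL3 replicate 2 well above the others. Its log2 fold change was 0.18 (SE 0.14, limma adjusted p = 0.346) as deposited and 0.25 (SE 0.12, adjusted p = 0.225) with the trend removed. The fourth receptor of the family, ERBB4, was not among the genes used here.

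Levels of different genes, and their shares of the summed receptor or ligand level, were compared per kb of merged exon as deposited, without trend removal. Among the receptors the order was EGFR, ERBB2 and ERBB3 in both groups. EGFR averaged 633 ± 29.7 counts per kb in the sgMLL3 libraries and 619 ± 13.1 in the sgNT libraries (SD, n = 3 each). ERBB2 averaged 484 ± 35.8 in the sgMLL3 libraries and 559.7 ± 20.6 in the sgNT libraries, and ERBB3 44.9 ± 7.0 in the sgMLL3 libraries and 39.4 ± 3.08 in the sgNT libraries. No neighbours in this order overlapped within a group. The share of ERBB2 in the summed receptor level was 39.8%, 41.0% and 44.2% in the sgMLL3 libraries and 45.6%, 45.1% and 47.0% in the sgNT libraries.

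Among the ligands, AREG and HBEGF stood far above the rest. Per kb of exon, AREG averaged 1944 ± 126 counts in the sgMLL3 libraries and 2006 ± 413 in the sgNT libraries, and HBEGF 1693 ± 61.2 in the sgMLL3 libraries and 1984 ± 345 in the sgNT libraries (SD, n = 3 each). These genes overlapped each other in the sgNT libraries, between 1547 and 2347 counts per kb for AREG and between 1611 and 2290 for HBEGF, so they have no clear order there. TGFA followed at 528 ± 34.6 in the sgMLL3 libraries and 581 ± 40.5 in the sgNT libraries. NRG1 stood at 102 ± 6.93 in the sgMLL3 libraries and 132 ± 23.0 in the sgNT libraries, EREG at 70.3 ± 10.2 in the sgMLL3 libraries and 42.5 ± 1.91 in the sgNT libraries, and BTC at 35.8 ± 10.7 in the sgMLL3 libraries and 27.8 ± 10.1 in the sgNT libraries. No other neighbours overlapped within a group. NRG1 has many isoforms, whose merged exons of 11.3 kb exceed its longest transcript of 5931 bases, so its level per kb depends on the length used. AREG and HBEGF together made up most of the summed ligand level. AREG took 45.6%, 45.2% and 42.5% of it in the sgMLL3 libraries and 39.0%, 44.9% and 41.4% in the sgNT libraries, and HBEGF took 38.0%, 37.0% and 41.2% in the sgMLL3 libraries and 40.6%, 39.3% and 44.6% in the sgNT libraries. EREG took 1.59%, 1.82% and 1.40% in the sgMLL3 libraries and 1.02%, 0.849% and 0.830% in the sgNT libraries.

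**Figure D2:**
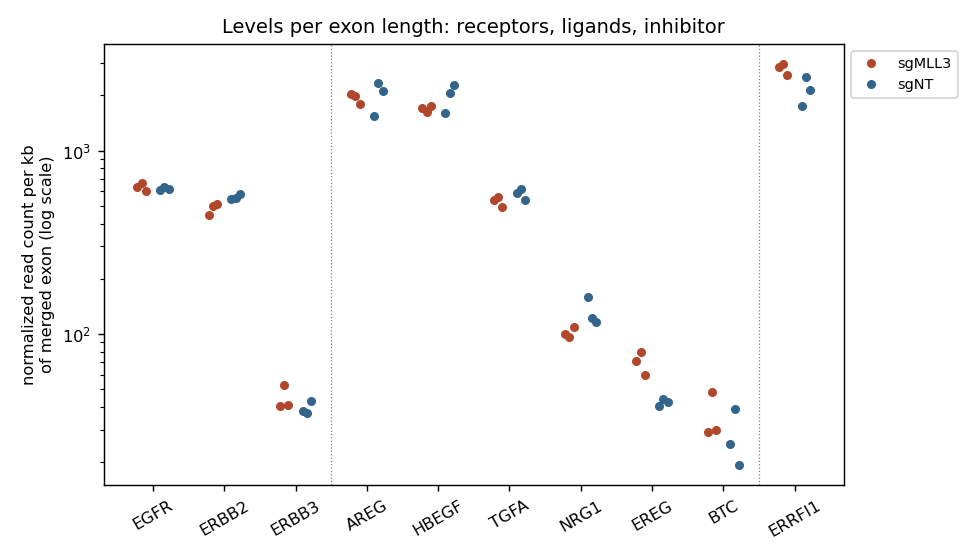
Normalized read count per kb of merged exon (log scale) of the receptors, ligands and ERRFI1, one point per library, sgMLL3 beside sgNT. AREG and HBEGF lie between 1547 and 2347 counts per kb in every library, and ERBB3 and BTC lie lowest in their classes.

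EREG (ENSG00000124882.4, chromosome 4, 74365143 to 74388751, plus strand) encodes epiregulin, a ligand of EGFR and ERBB4 that is itself transcribed in response to ERK signalling. It held 409, 456 and 340 normalized counts in the sgMLL3 libraries and 232, 253 and 243 in the sgNT libraries. Every sgMLL3 library lay above every sgNT library, and the lowest of them was sgMLL3 replicate 3. EREG rose by 0.72 (SE 0.15, limma adjusted p = 0.00157), a fold of 1.64, and the authors' deposited table lists 0.73 with an adjusted p of 3.6e-05. The call held with each library left out in turn (log2 fold change 0.62 to 0.83, adjusted p at most 0.0198). EREG also has the lowest GC content of the 10 genes (36.1%). With the trend removed its log2 fold change was 0.28 (SE 0.12, limma adjusted p = 0.178), which did not pass although the groups still did not overlap.

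AREG (ENSG00000109321.11, chromosome 4, 74445134 to 74455009, plus strand) encodes amphiregulin and is the next gene of the family on the chromosome, 56382 bases beyond the end of EREG. It held 3369, 3272 and 2972 normalized counts in the sgMLL3 libraries and 2549, 3869 and 3501 in the sgNT libraries. The sgMLL3 values fell inside the range of the sgNT values, of which replicate 1 was the lowest of all 6. Its log2 fold change was -0.025 (SE 0.12, limma adjusted p = 0.891) and -0.092 (SE 0.13, adjusted p = 0.716) with the trend removed. The ratio of EREG to AREG was compared within libraries, as a pair chosen after the values were seen. On the log2 scale it was -3.04, -2.84 and -3.12 in the sgMLL3 libraries and -3.45, -3.93 and -3.84 in the sgNT libraries, with no overlap and a difference of 0.74 (exact two-sided permutation p = 0.1, the smallest that 3 libraries against 3 can give). After trend removal the ratios were -3.25, -3.05 and -3.25 in the sgMLL3 libraries against -3.26, -3.79 and -3.63 in the sgNT libraries, a difference of 0.37 (exact permutation p = 0.1), and sgMLL3 replicates 1 and 3 then lay just above sgNT replicate 1. The ratio of NRG1 to TGFA was also computed and differed by -0.23 (exact permutation p = 0.3), or by -0.35 (p = 0.2) after trend removal.

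The promoters of EREG, AREG and ERRFI1 are shown because EREG and ERRFI1 were called higher while the neighbour AREG was not. The promoter table has an entry for 8 of the 10 genes. Each run spans 250 bases before to 50 bases after the annotated start (RefSeq, GRCh38.p14, written 5′ to 3′ on the strand of the gene): chr4:74364895-74365194 on the plus strand for EREG, chr4:74444886-74445185 on the plus strand for AREG and chr1:8026260-8026559 on the minus strand for ERRFI1. Capitals mark matches, on either strand, to the cyclic AMP response element TGACGTCA, the AP-1 element TGANTCA, the TATA element TATAAA or the GC box GGGCGG, and none of these matches overlap.
EREG: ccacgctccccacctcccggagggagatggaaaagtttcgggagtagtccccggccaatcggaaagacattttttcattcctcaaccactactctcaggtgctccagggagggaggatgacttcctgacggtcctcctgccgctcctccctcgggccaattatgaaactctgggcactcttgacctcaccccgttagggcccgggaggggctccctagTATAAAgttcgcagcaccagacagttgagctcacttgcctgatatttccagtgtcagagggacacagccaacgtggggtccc
AREG: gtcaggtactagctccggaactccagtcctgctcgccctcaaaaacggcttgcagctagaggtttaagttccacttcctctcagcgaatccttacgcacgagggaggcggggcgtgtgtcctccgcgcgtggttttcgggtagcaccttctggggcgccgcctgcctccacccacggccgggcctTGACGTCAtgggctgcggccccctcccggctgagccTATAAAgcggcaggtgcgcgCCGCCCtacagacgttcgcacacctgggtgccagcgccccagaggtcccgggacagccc
ERRFI1: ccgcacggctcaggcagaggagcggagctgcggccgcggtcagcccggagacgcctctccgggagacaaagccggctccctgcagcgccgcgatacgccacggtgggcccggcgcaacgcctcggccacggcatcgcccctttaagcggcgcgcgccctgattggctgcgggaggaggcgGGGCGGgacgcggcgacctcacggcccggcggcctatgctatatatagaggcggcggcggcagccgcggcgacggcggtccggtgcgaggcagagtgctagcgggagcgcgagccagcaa
EREG and AREG each held a TATA element, 32 and 29 bases before the start, which 11.5% of the 35116 promoters of the table hold. Only the exact letters TATAAA were searched. ERRFI1 lacks them but holds the letters tatatata between its GC box and the start, which were not counted. AREG alone of these promoters held the cyclic AMP response element, 65 bases before the start, and 1.85% of all promoters hold it. AREG and ERRFI1 each held 1 GC box, 9 and 70 bases before the start, as do 45.0% of promoters. None of these promoters held the AP-1 letters, which 7.71% of promoters hold. GC content over the 300 bases was 57.7% for EREG, 66.3% for AREG and 74.7% for ERRFI1.

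HBEGF (ENSG00000113070.8, chromosome 5, 140332843 to 140346631, minus strand) encodes the heparin-binding EGF-like growth factor, whose membrane form is also the receptor of diphtheria toxin. It held 5145, 4911 and 5276 normalized counts in the sgMLL3 libraries and 4861, 6195 and 6910 in the sgNT libraries. The sgMLL3 libraries lay close together, and below sgNT replicates 2 and 3 but not below replicate 1. The log2 fold change was -0.21 (SE 0.10, limma adjusted p = 0.12) as deposited and -0.12 (SE 0.097, adjusted p = 0.473) with the trend removed.

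TGFA (ENSG00000163235.16, chromosome 2, 70447280 to 70554193, minus strand) encodes transforming growth factor alpha, a ligand of EGFR alone. It held 2665, 2769 and 2433 normalized counts in the sgMLL3 libraries and 2898, 3076 and 2675 in the sgNT libraries, which overlap by the highest sgMLL3 and the lowest sgNT library. The difference of -0.14 (SE 0.090) did not pass (limma adjusted p = 0.251). After trend removal the log2 values were 11.32, 11.38 and 11.22 in the sgMLL3 libraries and 11.52, 11.61 and 11.48 in the sgNT libraries. The groups then did not overlap, and TGFA fell by 0.23 (SE 0.064, limma adjusted p = 0.0409). That call was kept in 1 of the 6 fits that leave out a library, the one without sgNT replicate 1 (adjusted p = 0.00398), and reached 0.0532 to 0.168 in the others.

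NRG1 (ENSG00000157168.20, chromosome 8, 31639386 to 32767959, plus strand) encodes neuregulin 1, a ligand of ERBB3. It held 1129, 1086 and 1239 normalized counts in the sgMLL3 libraries and 1798, 1382 and 1317 in the sgNT libraries. All sgMLL3 libraries lay below all sgNT libraries, and sgNT replicate 1 was far above the rest. NRG1 fell by 0.37 (SE 0.12, limma adjusted p = 0.0217), and by 0.58 (SE 0.10, adjusted p = 0.00609) with the trend removed, where its log2 values were 10.01, 9.96 and 10.22 in the sgMLL3 libraries and 10.87, 10.51 and 10.54 in the sgNT libraries. As deposited the call was lost without sgNT replicate 1 (-0.23, adjusted p = 0.0702), sgMLL3 replicate 1 (-0.36, 0.0825) or sgMLL3 replicate 2 (-0.33, 0.1). With the trend removed it was lost without sgMLL3 replicate 1 (-0.56, limma adjusted p = 0.0517) and kept in the other 5 such fits.

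BTC (ENSG00000174808.12, chromosome 4, 74744759 to 74794686, minus strand) encodes betacellulin, a ligand of EGFR and ERBB4. With 56 to 153 reads per library it was the gene with the least depth, and counting error alone reaches 13.4% of its lowest value. It held 82.4, 136 and 84.4 normalized counts in the sgMLL3 libraries and 71.1, 109.5 and 54.1 in the sgNT libraries, and the groups overlapped. Its log2 fold change was 0.38 (SE 0.27, limma adjusted p = 0.292) and became 0.034 (SE 0.28, adjusted p = 0.959) with the trend removed. The 95% interval as deposited, -0.19 to 0.96, holds 0 as well as the 0.72 of EREG. The spread between libraries was wider than the counting error, since sgNT replicate 2 stood 0.81 above the mean of the other sgNT libraries on the log2 scale. Of the other ligands of the family, EGF and NRG2 were listed. EGF held 108, 165 and 93.6 normalized counts in the sgMLL3 libraries and 142, 75.2 and 75.3 in the sgNT libraries (log2 fold change 0.34, SE 0.27, limma adjusted p = 0.331, and 0.17, adjusted p = 0.757, after trend removal). NRG2 held 40.1, 71.8 and 66.1 in the sgMLL3 libraries and 50.6, 63.4 and 49.3 in the sgNT libraries (0.089, SE 0.28, limma adjusted p = 0.834, and 0.31, adjusted p = 0.504, after trend removal). EPGN, NRG3 and NRG4 were not among the genes used here.

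ERRFI1 (ENSG00000116285.13, chromosome 1, 8004404 to 8026308, minus strand), the receptor inhibitor, had the highest mean count of the 10 genes in either group, although in sgNT replicate 1 EGFR was higher. Per kb of exon it averaged 2796 ± 202 in the sgMLL3 libraries and 2138 ± 383 in the sgNT libraries (SD, n = 3 each), where its range overlapped those of AREG and HBEGF. It held 11943, 12401 and 10764 normalized counts in the sgMLL3 libraries and 7356, 10566 and 8920 in the sgNT libraries. The groups were separated by a narrow gap between sgMLL3 replicate 3 and sgNT replicate 2. ERRFI1 rose by 0.40 (SE 0.11, limma adjusted p = 0.00859), a fold of 1.32, and kept its call with each library left out (0.27 to 0.53, adjusted p at most 0.0482). After trend removal the log2 fold change was 0.19 (SE 0.11, limma adjusted p = 0.315) and the groups overlapped. Exons of the antisense gene AL034417.4, not among the genes used here, cover 3.70% of those of ERRFI1.

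**Figure D3:**
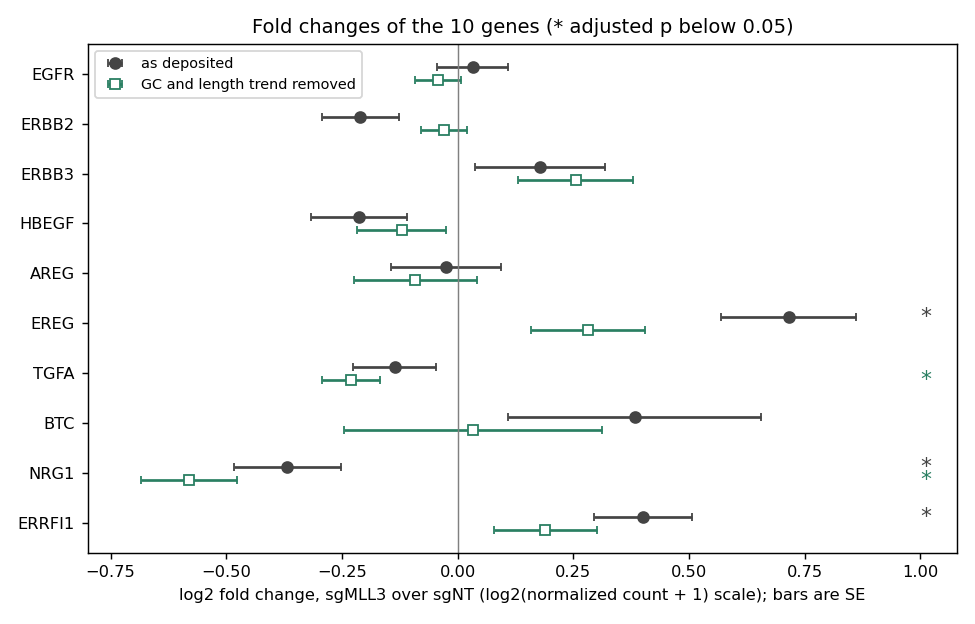
Log2 fold change of sgMLL3 over sgNT with its SE for the 10 genes, as deposited (filled) and with the GC and length trend removed (open), asterisks marking a limma adjusted p below 0.05. EREG (0.72) and ERRFI1 (0.40) are called as deposited, TGFA (-0.23) with the trend removed, and NRG1 (-0.37 and -0.58) in both.

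The base composition of the transcripts ran alongside these differences. Trend removal took 0.43 from the log2 fold change of EREG, 0.35 from that of BTC (GC content 40.2%), 0.21 from that of ERRFI1 (43.4%) and 0.21 from that of NRG1 (43.9%), and it added 0.18 to that of ERBB2. After trend removal, ERBB3, EREG, TGFA and NRG1 (4 of the 10 genes) showed no overlap between groups, beside 30.9% of all genes. NRG1 lay below 0 in both analyses although its GC content is close to that of ERRFI1, which lay above 0 in both.

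**Figure D4:**
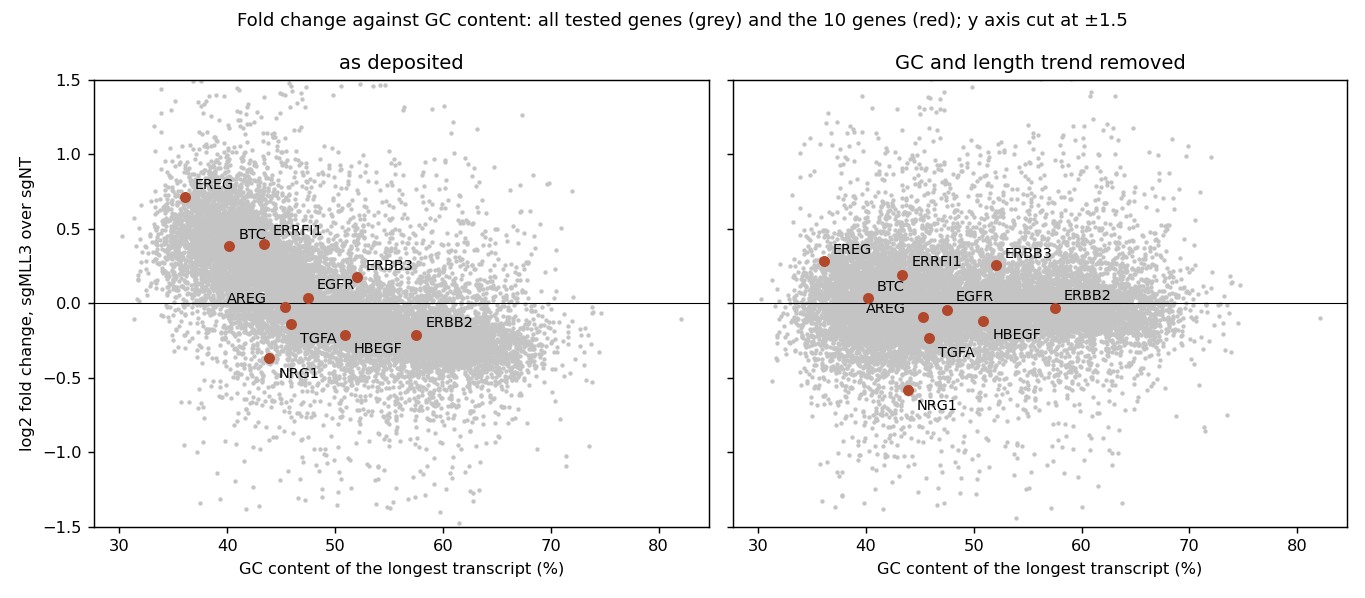
Log2 fold change of sgMLL3 over sgNT (y axis, outermost genes not drawn) against GC content of the longest transcript (x axis, %), for all tested genes in grey and the 10 genes in red, as deposited (left) and with the trend removed (right). EREG (36.1% GC) lies within the cloud of AT-rich genes on the left, and NRG1 (43.9%) lies below 0 in both panels.

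The sgNT libraries varied among themselves for several of the 10 genes. Against the mean of the other sgNT libraries, the log2 value of sgNT replicate 1 differed by -0.43 for HBEGF, -0.53 for AREG, -0.40 for ERRFI1 and 0.41 for NRG1, and by -0.033 for EGFR. That of sgNT replicate 2 differed by 0.37 for AREG, 0.38 for ERRFI1 and 0.81 for BTC, and that of sgNT replicate 3 by 0.33 for HBEGF and -0.70 for BTC. Over all tested genes the median absolute difference was 0.178 for sgNT replicate 1, 0.111 for sgNT replicate 2 and 0.168 for sgNT replicate 3.

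The calls among the 10 genes depended on which library was left out. As deposited, the number called lower was 2 without sgNT replicate 1 (HBEGF and ERBB2) or without sgMLL3 replicate 3 (NRG1 and ERBB2). It was 1 without sgNT replicate 2 or 3 and 0 without sgMLL3 replicate 1 or 2. Over all genes, 2099 were called lower with all libraries, 2194 without sgMLL3 replicate 3, and 1350 and 1071 without sgNT replicates 2 and 3. Without sgMLL3 replicates 1 and 2, 560 and 719 of all genes were called lower. EREG and ERRFI1 were called higher in all 6 fits as deposited, where 1591 to 3301 of all genes were called higher. With the trend removed, 241 to 512 of all genes were called lower in the fits that kept sgNT replicate 1. Among the 10 genes, the number called lower was then 4 without sgNT replicate 1, 0 without sgMLL3 replicate 1 and 1 (NRG1) in each of the other fits. The 4 genes were NRG1 (-0.47), AREG (-0.30), HBEGF (-0.26) and TGFA (-0.24), beside 14.4% of all genes called lower and 10.2% higher in that fit (24.6% in all), where 0 of the 10 genes were higher in limma, also at an unadjusted p below 0.05. As deposited without sgNT replicate 1, 42.2% of all genes were called, 22.6% higher and 19.6% lower. HBEGF then stood at -0.36 (limma adjusted p = 0.000809) and AREG at -0.20 (adjusted p = 0.0646). That library held the lowest sgNT value of both genes, so leaving it out raised their sgNT mean and narrowed its spread by construction, and these calls are no separate evidence of a decrease.

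**Figure D5:**
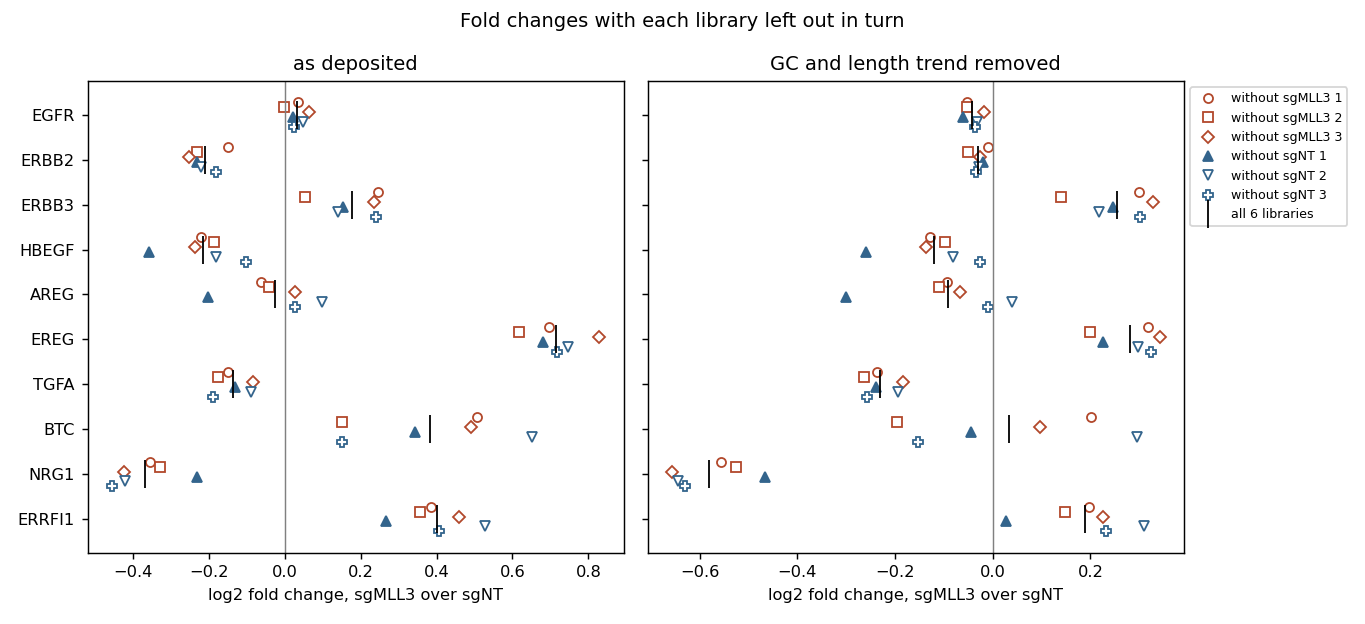
Log2 fold change of sgMLL3 over sgNT for the 10 genes with each of the 6 libraries left out in turn (symbols) and with all 6 libraries (black bars), as deposited (left) and with the trend removed (right). Leaving out sgNT replicate 1 (filled triangles) moves HBEGF to -0.36 and AREG to -0.20 and NRG1 to -0.23 on the left.

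Genes whose course over the 6 libraries was most like that of the top receptor and the top ligand were sought among 11517 other genes with a mean of at least 100, by the root mean square difference of gene-centred log2 values. For EGFR these were LETMD1 (0.017), ANTXR1 (0.017) and CCDC127 (0.019), beside a median of 0.180 over all genes compared. For AREG they were GJB2, which encodes connexin 26 (0.026), EPHX4 (0.029) and CBLB, which encodes a ubiquitin ligase of activated receptors (0.048), beside a median of 0.255. CBLB averaged 487 normalized counts in the sgMLL3 libraries and 488 in the sgNT libraries.

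The wider pathway was read from 5 lists of 120 symbols, of which 118 were tested. Of these, 34 were higher and 25 lower in the sgMLL3 libraries as deposited (median log2 fold change -0.013, beside -0.017 over all genes tested), and 8 and 5 with the trend removed. Over all genes tested the shares were 18.9% higher and 14.4% lower as deposited, and 4.08% and 5.95% with the trend removed. The call of 16 of the 28 pathway genes chosen by rule was kept in all 6 fits that leave out a library, as deposited. For AKT1, AP2A1 and EPN1 the call was kept in 5 such fits, and for ADAM15 and ADAM17 in 4. For MAPK3, RNF126, KLF6 and FOS it was kept in 3, for ETV1 and ETV4 in 2 and for SPRED3 in 1. With the trend removed none of the 28 genes was called in all 6 such fits. ADAM19 was called in 5 of them, ADAM9 and EPN1 in 4, and ADAM10, NF1, RAB5A and FOS in 2. USP8, SOCS4, ADAM17, FRMD8, AKT1, AP2A1, KLF6 and FOSL1 were each called in 1. Among 11 sheddases and their rhomboid regulators, which release the ligands, 3 were higher and 5 lower as deposited (median -0.29), beside 18.9% and 14.4% of all genes. The median of this list was -0.083 with the trend removed. ADAM17, the main sheddase of AREG, TGFA and HBEGF, averaged 2141 ± 114 normalized counts in the sgMLL3 libraries and 1714 ± 171 in the sgNT libraries (SD, n = 3 each) and rose by 0.32 (SE 0.096, limma adjusted p = 0.0166), against -0.11 once the trend was removed (adjusted p = 0.443). With the trend removed and sgNT replicate 1 left out, ADAM17 was instead called lower (-0.19, limma adjusted p = 0.0205). The other called members named by rule were ADAM9 and ADAM10 (each 0.65), ADAM19 (-0.49), FRMD8, which steadies the rhomboid and ADAM17 complex (-0.36), and ADAM15 (-0.29). ADAM9, ADAM10 and ADAM19 were also called with the trend removed, where the list counted 2 higher and 1 lower and FRMD8 (-0.14) and ADAM15 (-0.069) did not pass.

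Of 33 adaptors and kinases tested, 14 were higher and 8 lower as deposited (median 0.0028), beside 18.9% and 14.4% of all genes, and 2 and 0 with the trend removed, beside 4.08% and 5.95%. NF1, which switches RAS off, rose by 0.71 (SE 0.11, limma adjusted p = 0.000172) and by 0.34 (adjusted p = 0.0349) with the trend removed. The PI3-kinase subunit gene PIK3CA (0.68) was higher as deposited and had 0.21 once the trend was removed (adjusted p = 0.116). AKT1 (-0.33), AKT2 (-0.32) and MAPK3, which encodes ERK1 (-0.32), were lower as deposited and stood past no threshold after trend removal (-0.14, -0.14 and -0.083).

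Of 25 genes of receptor trafficking and turnover, 6 were higher and 8 lower as deposited (median -0.0011), beside 18.9% and 14.4% of all genes, and 2 and 3 with the trend removed, beside 4.08% and 5.95%. USP8, a deubiquitinase that spares EGFR from degradation in endosomes, held 1317 ± 39.5 normalized counts in the sgMLL3 libraries and 775 ± 102 in the sgNT libraries (SD, n = 3 each). It rose by 0.77 (SE 0.11, limma adjusted p = 0.000103), and by 0.33 (adjusted p = 0.033) with the trend removed. RAB5A, the GTPase of early endosomes (0.51), and VPS4B (0.55) were higher as deposited, and the adaptor genes AP2A1 (-0.38) and EPN1 (-0.31) and the ubiquitin ligase gene RNF126 (-0.30) were lower. Of these, RAB5A (0.24) and EPN1 (-0.27) passed with the trend removed, and VPS4B (0.17), AP2A1 (-0.15) and RNF126 (-0.052) did not.

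Of 23 feedback inhibitors, 8 were higher and 2 lower as deposited (median 0.18), beside 18.9% and 14.4% of all genes, and 1 and 0 with the trend removed (median 0.050), beside 4.08% and 5.95%. SOCS4, which promotes degradation of EGFR, was the one that passed in both analyses (0.83, SE 0.12, limma adjusted p = 0.000105, and 0.37, adjusted p = 0.0236, with the trend removed). RASA2 (0.63) and the phosphatase gene PTPN2 (0.50) were higher as deposited, and LRIG1, a transmembrane inhibitor of the receptors (-0.48), and SPRED3 (-0.32) were lower. These did not pass with the trend removed, at 0.19 for RASA2, 0.13 for PTPN2, -0.34 for LRIG1 and -0.13 for SPRED3. Of 26 ERK target genes, 3 were higher and 2 lower as deposited (median -0.037), beside 18.9% and 14.4% of all genes, and 1 and 1 with the trend removed (median 0.040), beside 4.08% and 5.95%. FOS averaged 346 ± 33.0 normalized counts in the sgMLL3 libraries and 251 ± 55.7 in the sgNT libraries (SD, n = 3 each) and rose by 0.48 (SE 0.17, limma adjusted p = 0.0349), and by 0.62 (adjusted p = 0.0367) with the trend removed. Its call was kept in 3 of the 6 fits that leave out a library as deposited and in 2 of 6 with the trend removed, and without sgNT replicate 1 the log2 fold change of FOS was 0.28 (limma adjusted p = 0.118). KLF6 (0.29) and ETV1 (0.33) were higher and FOSL1 (-0.38) and ETV4 (-0.30) lower as deposited, although the groups overlapped for ETV1. After trend removal KLF6 (0.19), ETV1 (-0.11), FOSL1 (-0.12) and ETV4 (-0.065) did not pass.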

How the data were processed

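RNA of 6 libraries was measured, 3 labelled sgMLL3 and 3 labelled sgNT. Per the submitters' processing notes, reads were handled with STAR 2.4.0, FastQC, DESeq2 1.30.1 and featureCounts 1.5.0 on GRCh38.p13; the annotation, the strand setting and any filter were not given in the sources used here. As deposited by the authors, the data are 1 table of 15706 genes with a normalized count per library, a signal made by dividing reads by 1 size factor per library. Further columns, per the file headers, are the authors' log2 fold change and its SE, a Wald score, and p-values with their adjusted values. All values (100%) lay within 0.01 of a whole multiple of a common step per library, which gave the reads back, 41240265 to 49514464 per library.

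Groups were compared two-sided in R 4.3.3 with limma 3.58.1, its variance prior following mean expression. The 14618 genes averaging 10 or more entered as log2(value + 1), and p-values were adjusted by Benjamini-Hochberg over all of these genes. All 10 genes passed that filter. Trend removal subtracted, per library, natural splines with 5 terms each of GC percent and log2 length of the longest transcript (GENCODE 29) from the gene-centred log2 values of 14598 genes. Exon lengths merge all annotated exons of a gene. Alternatives were edgeR 4.0.16 and DESeq2 1.42.0 on the recovered reads, TMM and quantile scaling, other filters and pseudocounts, a replicate block, and each library left out. The scripts were tested on simulated data. The genes and lists were chosen with earlier results of these data known. Named were all 10 genes and, per pathway list, up to 3 called genes in each direction, by adjusted p, with the genes closest in course to EGFR and AREG; 1 gene that this rule names is not reported here.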

Additional observations from a re-analysis of the deposited data

How the results depend on the processing

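As deposited, 2 of the 10 genes were higher and 1 lower under other pseudocounts, filters, TMM and quantile scaling and edgeR. DESeq2 and the replicate block each gave 2 lower, adding ERBB2, and the trend removed gave 0 higher and 2 lower, with or without the block. With the trend removed, 595 genes were called higher and 868 lower (540 and 773 with the replicate block added), against 2760 and 2099 as deposited. The pathway genes called were 8 higher and 5 lower (7 and 5 with the block), against 34 and 25 as deposited, and 10 of them were called in the same direction both ways. With each library left out, with the trend kept or removed, the genes called higher numbered 122 to 3301 and lower 241 to 2866, the pathway genes 0 to 36 higher and 0 to 38 lower, and the 10 genes 0 to 2 higher and 0 to 4 lower. The sign of EGFR turned to -0.042 with the trend removed (with or without the block), that of ADAM17 to -0.11 and that of ETV1 to -0.11. With a library left out, EGFR ranged from -0.060 to 0.064, AREG from -0.30 to 0.099, BTC from -0.20 to 0.65, EGF from -0.063 to 0.65, NRG2 from -0.068 to 0.51, ADAM17 from -0.19 to 0.40 and ETV1 from -0.17 to 0.44. Whether the replicate numbers pair the libraries was not tested. As deposited, deviations from the group means correlated at 0.066, 0.0063 and 0.13 between same-numbered libraries. For replicates 1 and 3 no other pairing was higher, whereas sgMLL3 replicate 2 correlated better with sgNT replicate 1 (0.022). With the trend removed the same-numbered libraries correlated at 0.011, -0.0033 and 0.022. The replicate block moved the genes called to 3241 higher and 3024 lower. BTC and NRG2 had the lowest counts of the family genes. The causes of these differences were not tested.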

Other observations

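EREG, AREG and BTC lie in a run on the long arm of chromosome 4 beside the CXC chemokine genes. Of the 8 tested genes between 500 kb before EREG and 500 kb after BTC, EREG alone was called as deposited, beside 33.2% of all genes tested. MTHFD2L, the tested gene next before EREG, averaged 489 normalized counts in the sgMLL3 libraries and 392 in the sgNT libraries (log2 fold change 0.32, SE 0.13, limma adjusted p = 0.0684), against -0.10 once the trend was subtracted (adjusted p = 0.554). CXCL1 averaged 231 in the sgMLL3 libraries and 323 in the sgNT libraries (-0.38, SE 0.25, limma adjusted p = 0.256, and -0.43, adjusted p = 0.403, with the trend subtracted). CXCL2, CXCL3 and PARM1 had log2 fold changes of 0.028, -0.34 and 0.92, with adjusted p from 0.247 to 0.961. None of the 8 passed with the trend removed, beside 10.0% of all genes, and EREG had the smallest adjusted p there too (0.178).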
